A study of Mus musculus with 24 samples.

Results

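The genes described here are 44 mouse genes known to be imprinted that lie outside the H19-Igf2 and Dlk1-Meg3 domains. They were picked by symbol from a list of imprinted genes, and all 44 were found among the 19953 genes measured. By textbook assignment they fall into 19 domains or single loci. Of the 44 genes, 22 are listed as read mainly from the paternal copy, 19 as read mainly from the maternal copy, and 3 as varied or complex. Tissue limits of imprinting also differ among the 22 and the 19, and which copy was read in these cells was not measured. The silent copy of an imprinted gene is usually held off by DNA methylation that was laid down at a control region in the egg or the sperm and is protected in the embryo by the zinc finger protein ZFP57 and its partner TRIM28. MLL1 (gene Kmt2a) and MLL2 (gene Kmt2b) are histone methyltransferases that act on lysine 4 of histone H3, and this mark at CpG-rich promoters hinders the enzymes of new DNA methylation. In embryonic stem cells and in the growing oocyte MLL2 is known to place the mark at many CpG-rich promoters.

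PolyA RNA was sequenced from mouse embryonic stem cells (mESC) of 4 genotypes at day 0 and day 4, as 8 groups of 3 libraries. The groups on each day were Mll1-KO, deleted by CRISPR with a pair of guides, Mll2-KO, deleted by Cre after 48 hours in 800 nM 4-hydroxytamoxifen (4-OHT), double-KO, which carried both deletions and was also given 4-OHT, and WT. All lines came from a parental line with a Cre-inducible Mll2 deletion. At day 0 the cells were kept undifferentiated on gelatin in 15% serum with leukemia inhibitory factor, and at day 4 they had been in 10% serum with 1 µM retinoic acid for 4 days, in a medium for which no inhibitory factor is listed. WT and Mll1-KO cells were not given 4-OHT, so loss of Mll2 and the drug cannot be told apart in Mll2-KO against WT or in double-KO against Mll1-KO. Mll1-KO against WT and double-KO against Mll2-KO each compare cells of the same treatment. The labels do not say whether a line was 1 clone or whether the 3 libraries of a group were separate cultures, so p-values measure only the spread between these libraries, which may be technical. Counts add up both parental copies, so a weaker active copy and a silent copy that has opened cannot be told apart. A smaller share of expressing cells and less RNA per cell cannot be told apart either.

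Libraries held 17.7 to 22.8 M reads at day 0 and 10.7 to 17.1 M at day 4. Kmt2a, the gene deleted in Mll1-KO and double-KO cells, averaged 29.7 ± 11.8 in Mll1-KO, 1381 ± 87.0 in Mll2-KO, 29.7 ± 8.36 in double-KO and 1089 ± 37.8 normalized counts in WT at day 0, and its libraries matched the genotype labels (here and below, mean ± SD of 3 libraries). At day 4 it averaged 55.9 ± 13.7 in Mll1-KO, 2362 ± 71.7 in Mll2-KO, 104 ± 24.0 in double-KO and 2141 ± 106 in WT. Residual Kmt2a was thus higher in double-KO than in Mll1-KO at day 4, without overlap of libraries. The labels do not give the part of Mll2 that Cre removes, so whole-gene counts of Kmt2b check nothing. Loss of MLL2 is taken from the labels below and was not verified here. All 9 pluripotency markers on a list of cell type markers reached 10 in at least 1 library of every group on both days. Their summed level in WT was 3657 to 5007 at day 4 and 139737 to 141823 at day 0. Markers of endoderm summed to 3473 to 3862 in Mll1-KO, 20368 to 21837 in Mll2-KO, 3391 to 3788 in double-KO and 20218 to 21520 in WT at day 0. At day 4 the same sums were 68739 to 73944, 202555 to 208247, 113254 to 116755 and 140447 to 144697 in that order of groups. Summed marker levels thus moved with genotype on both days, and their part in the results below was not tested.

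Values below are normalized counts, reads divided by 1 size factor per library, and folds are differences on the log2(normalized count + 1) scale, which understates the change of low genes. A gene was tested if it reached 10 in at least 3 libraries of the fit and was called by limma where its p, adjusted by Benjamini-Hochberg over all genes tested, was below 0.05. At day 0, 36 of the 44 genes were tested, and 42 at day 4 and across days. Rasgrf1, a Ras exchange factor, and Kcnk9, a potassium channel, were tested nowhere. Their highest values in any library were 6.86 and 1.53. Airn, Slc22a3, Asb4, Kcnq1, Nap1l5 and Dcn were too low for a test at day 0 and were tested at day 4. Of the 42 genes tested on either day, 40 were called in at least 1 of the 6 comparisons of a mutant with WT, where 88.1% of all genes were.

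The promoters of 4 genes on which the results turn are printed here because their CpG content spans that of the whole set. They are RefSeq windows of build GRCm38.p6, from 250 bases before to 50 bases after a transcript start, written 5′ to 3′ on the gene's strand with each CG in capitals, and for a gene with several starts the window with most CG pairs was taken. Ndn and Nnat fell in Mll2-KO cells on both days, Ppp1r9a fell mainly at day 4, and Slc22a18 was called higher in Mll2-KO cells at day 0 and not at day 4. The Ndn window is chr7:62348027-62348326 (plus strand) with 11 CG pairs, the Nnat window is chr2:157559828-157560127 (plus strand) with 17, the Ppp1r9a window is chr6:4903061-4903360 (plus strand) with 48, and the Slc22a18 window is chr7:143473539-143473838 (plus strand) with 2.
Ndn: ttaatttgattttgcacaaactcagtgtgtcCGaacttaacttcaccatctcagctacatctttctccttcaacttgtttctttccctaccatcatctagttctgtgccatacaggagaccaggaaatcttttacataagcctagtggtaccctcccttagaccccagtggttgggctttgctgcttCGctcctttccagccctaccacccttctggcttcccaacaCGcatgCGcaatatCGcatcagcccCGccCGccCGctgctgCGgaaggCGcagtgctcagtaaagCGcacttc
Nnat: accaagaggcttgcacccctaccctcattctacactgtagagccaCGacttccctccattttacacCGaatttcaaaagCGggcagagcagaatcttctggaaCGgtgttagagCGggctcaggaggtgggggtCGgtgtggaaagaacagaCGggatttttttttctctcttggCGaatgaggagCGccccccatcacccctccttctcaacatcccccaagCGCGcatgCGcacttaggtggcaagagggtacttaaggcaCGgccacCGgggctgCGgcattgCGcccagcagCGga
Ppp1r9a: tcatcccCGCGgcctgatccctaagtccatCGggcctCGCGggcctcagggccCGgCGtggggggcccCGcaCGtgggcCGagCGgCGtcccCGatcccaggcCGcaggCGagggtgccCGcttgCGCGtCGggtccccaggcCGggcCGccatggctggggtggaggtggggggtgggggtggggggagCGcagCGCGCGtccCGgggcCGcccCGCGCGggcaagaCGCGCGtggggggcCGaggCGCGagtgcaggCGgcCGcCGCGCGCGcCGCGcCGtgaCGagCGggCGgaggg
Slc22a18: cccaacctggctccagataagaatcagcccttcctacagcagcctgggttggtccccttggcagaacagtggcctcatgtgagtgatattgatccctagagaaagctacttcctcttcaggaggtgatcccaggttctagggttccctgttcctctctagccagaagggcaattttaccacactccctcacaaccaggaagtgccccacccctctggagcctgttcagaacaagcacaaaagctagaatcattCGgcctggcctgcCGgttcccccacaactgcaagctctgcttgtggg

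Of the 44 genes, 35 had a window in the RefSeq table, with 49 windows between them. Their median was 17 CG pairs in 300 bases, against 7 over all 32851 windows of the table. The hexamer TGCCGC, the letters that ZFP57 binds when methylated, stood on either strand in 12 of the 49 windows (24.5%). Over all windows the share was 11.6%, and the Nnat window holds the hexamer 1 time. Those 12 windows belong to 11 genes, as Mest has near-identical windows that both hold it. The hexamer itself holds a CG pair, and its share among windows of like CG content was not taken, so the shares cannot be compared apart from CG content.  At day 4 the median was 22 CG pairs for the 8 genes with a window that were higher in Mll2-KO, 17 for the 13 that were lower and 15 for the 13 that were not called. At day 0 it was 25 for the 7 that were higher, 17 for the 14 that were lower and 18 for the 9 that were not called, so that the order of lower and uncalled genes differed between the days. A match of these letters is a description and not a binding site.

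Most of these genes were higher in differentiated than in undifferentiated WT cells. Of the 42 tested, 32 were higher and 8 lower at day 4 than at day 0, where 82.9% of all genes were called, 43% higher and 39.9% lower. The median of the 42 was 1.26 on the log2 scale, against 0.044 over all 15114 genes tested. The median of all genes was 0.17 after scaling to column totals and -0.105 after quantile scaling, and no gene named with its library values changed direction under either. In the list usually read from the paternal copy 17 of 21 tested genes rose and 2 fell, and of the maternally read genes 12 of 18 rose and 6 fell.

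**Figure D1:**
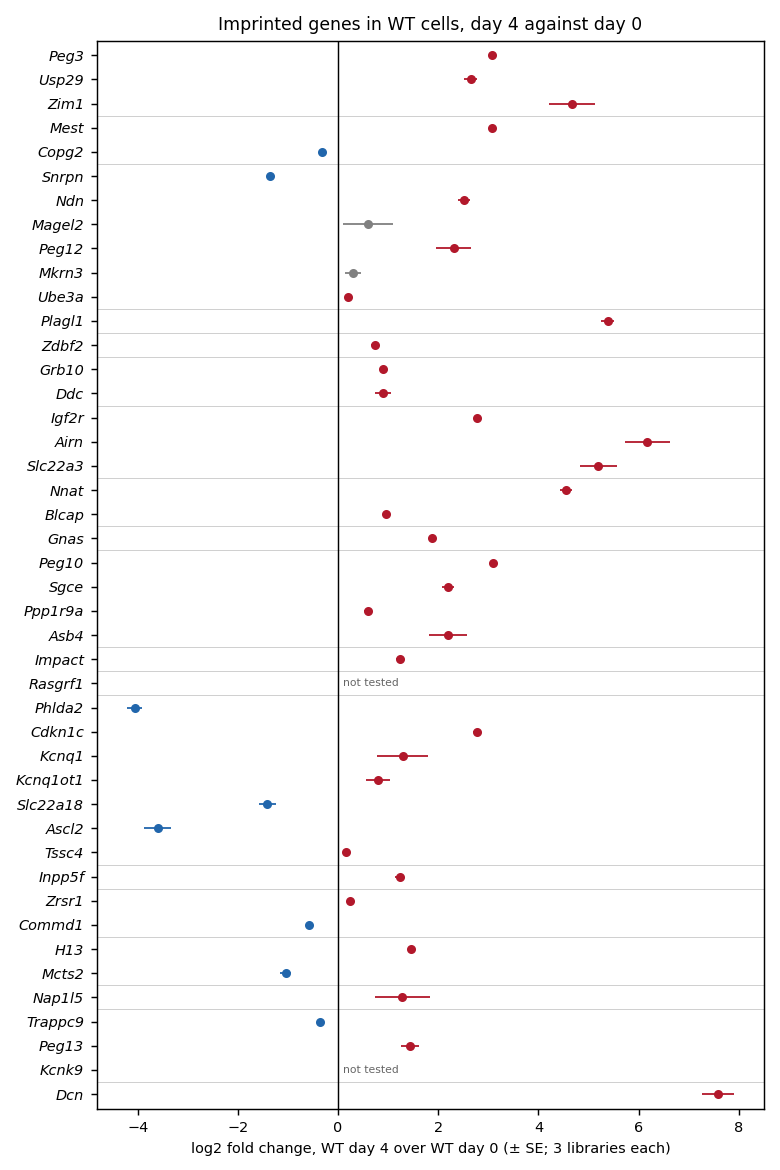
Log2 fold change of each imprinted gene in WT cells, day 4 over day 0, with the standard error as a bar (3 libraries each) and thin lines between domains; red points were called higher, blue points called lower and grey points not called. Most points lie right of 0, from Tssc4 at 0.17 to Dcn at 7.59, while Phlda2 and Ascl2 lie farthest left.

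In the Peg3 domain on chromosome 7 all 3 members rose together. Peg3, which encodes a zinc finger protein, had 30262, 29374 and 29525 normalized counts in WT cells at day 4 and 3560.5, 3579 and 3526 at day 0 (log2 fold change 3.06 ± 0.05 (SE), adjusted p = 4.8e-28). Its neighbour Usp29, a deubiquitinase gene, had 697, 626 and 666 at day 4 and 101, 107 and 106 at day 0 (log2 fold change 2.65 ± 0.13 (SE), adjusted p = 1.4e-16). Zim1, another zinc finger gene, had 424, 454 and 439 at day 4 and 19.9, 19.7 and 10.9 at day 0 (log2 fold change 4.67 ± 0.46 (SE), adjusted p = 3.3e-10). In none of the 3 did a library of day 4 come near the range of day 0.

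The Snrpn domain, also on chromosome 7, did not move as a block. Ndn, which encodes the neuronal growth suppressor necdin, had 806, 822 and 786 in WT at day 4 and 119, 148 and 155 at day 0 (log2 fold change 2.52 ± 0.12 (SE), adjusted p = 4.8e-17). Peg12, of the FRAT family of GSK3-binding proteins, had 66.1, 63.2 and 69.5 at day 4 and 16.1, 9.87 and 12.4 at day 0 (log2 fold change 2.31 ± 0.35 (SE), adjusted p = 8.1e-07). Snrpn, which encodes the spliceosomal protein SmN, went the other way, with 396, 409 and 435 at day 4 and 1105, 1085 and 1015 at day 0 (log2 fold change -1.37 ± 0.06 (SE), adjusted p = 1.0e-17). Ube3a, an E3 ubiquitin ligase gene, was slightly higher at day 4 (log2 fold change 0.19 ± 0.07 (SE), adjusted p = 0.0088). Magel2 and Mkrn3, genes of a MAGE protein and a RING finger protein, were not called (log2 fold change 0.59 ± 0.50 (SE), adjusted p = 0.27 and log2 fold change 0.30 ± 0.17 (SE), adjusted p = 0.1). Snrpn shares its exons with Snurf on the same strand and Ube3a is overlapped by the antisense Snhg14, and how the reads were split between them was not stated.

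Plagl1, Igf2r and Airn rose. Plagl1, a zinc finger factor that restrains the cell cycle, had 4603, 4063 and 3923 at day 4 and 79.6, 115 and 106 at day 0 (log2 fold change 5.38 ± 0.13 (SE), adjusted p = 2.0e-23). Igf2r, the receptor that carries IGF2 to the lysosome, had 10653, 9948 and 10605 at day 4 and 1611, 1486 and 1493 at day 0 (log2 fold change 2.76 ± 0.05 (SE), adjusted p = 5.0e-26). Airn, the antisense RNA that silences the paternal Igf2r copy, had 236, 212 and 218 at day 4 and 0.766, 3.04 and 3.11 at day 0 (log2 fold change 6.17 ± 0.44 (SE), adjusted p = 4.7e-13). Airn overlaps Igf2r on the other strand, so where counting ignored strand these 2 values would not be independent. Slc22a3, a cation transporter gene of the same domain, had a mean of 36.3 in WT at day 4 and no read at day 0, at least 15.8-fold higher against a floor of 3 counts per library.

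Cdkn1c, the cyclin-dependent kinase inhibitor p57, had 3357, 3357 and 3464 at day 4 and 563, 472 and 455 at day 0 (log2 fold change 2.78 ± 0.07 (SE), adjusted p = 1.3e-22). Phlda2, a pleckstrin homology protein that restrains placental growth, is a neighbour of Cdkn1c and moved in the opposite direction. It had 81.3, 112 and 84.8 at day 4 and 1645, 1495 and 1507 at day 0 (log2 fold change -4.06 ± 0.15 (SE), adjusted p = 1.9e-19). Ascl2, a trophoblast transcription factor of the same Kcnq1 domain, had 9.15, 15.0 and 9.43 at day 4 and 135, 128 and 172 at day 0 (log2 fold change -3.60 ± 0.27 (SE), adjusted p = 1.3e-12). Slc22a18, a transporter gene between Cdkn1c and Phlda2, had 21.3, 28.1 and 22.4 at day 4 and 59.0, 68.4 and 67.6 at day 0 (log2 fold change -1.41 ± 0.18 (SE), adjusted p = 3.7e-08). In this domain 4 genes therefore rose, Cdkn1c, Kcnq1, Kcnq1ot1 and Tssc4, and 3 fell, and the calls of Kcnq1, Kcnq1ot1 and Tssc4 were lost with quantile scaling. Kcnq1, a potassium channel gene, averaged 9.19 at day 4 and 3.82 at day 0, while Kcnq1ot1, the antisense RNA that silences the domain, averaged 127 and 72.7 on the same days.

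Nnat, which encodes neuronatin, a small protein of the endoplasmic reticulum, had 2197, 1866 and 2088 at day 4 and 81.2, 79.7 and 101 at day 0 (log2 fold change 4.54 ± 0.12 (SE), adjusted p = 9.5e-23). It lies in an intron of Blcap on the other strand, and Blcap rose less (log2 fold change 0.96 ± 0.07 (SE), adjusted p = 1.3e-13). Mest, an alpha/beta hydrolase gene, had 12668, 11808 and 12152 at day 4 and 1522, 1465 and 1395 at day 0 (log2 fold change 3.06 ± 0.05 (SE), adjusted p = 1.2e-26), while its tail-to-tail neighbour Copg2, a coatomer gene, fell (log2 fold change -0.33 ± 0.06 (SE), adjusted p = 1.1e-05). Gnas, which encodes the stimulatory G protein alpha subunit, had 12105, 12040.2 and 12581 at day 4 and 3253, 3369.9 and 3380.5 at day 0 (log2 fold change 1.88 ± 0.04 (SE), adjusted p = 7.3e-24). Nnat, Mest and Gnas had higher values in every day 4 library than in any day 0 library.

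In the Peg10 domain on chromosome 6 all 4 members rose. Peg10, a gene derived from a retrotransposon, had 78739, 69918 and 73329.9 at day 4 and 9039.7, 8739 and 8120.0 at day 0 (log2 fold change 3.10 ± 0.07 (SE), adjusted p = 2.8e-24). Sgce, the epsilon-sarcoglycan gene that starts beside it on the other strand, had 889, 836 and 945 at day 4 and 202, 177 and 204 at day 0 (log2 fold change 2.19 ± 0.12 (SE), adjusted p = 1.1e-15). Ppp1r9a, which encodes the actin-binding protein neurabin, rose less (log2 fold change 0.60 ± 0.08 (SE), adjusted p = 6.4e-08), and Asb4, an ankyrin repeat gene, averaged 30.4 at day 4 and 6.12 at day 0. The group was thus uneven in size but of 1 direction.

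Dcn, which encodes the matrix proteoglycan decorin, had 217, 181 and 178 in WT at day 4 and no read at day 0, at least 83.5-fold higher against the floor of 3 counts per library. Fibroblast markers, 7 of 8 of which were called higher at day 4, moved with it. Their summed level was 37923 to 42070 at day 4 and 14372 to 15319 at day 0, and their part in the rise of Dcn was not tested.

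Impact, which encodes an inhibitor of the kinase GCN2, had 5110.3, 4871 and 4983 in WT at day 4 and 2074, 1997 and 2286 at day 0 (log2 fold change 1.24 ± 0.08 (SE), adjusted p = 6.0e-14). Inpp5f, a phosphoinositide phosphatase gene, had 703, 679 and 735 at day 4 and 325, 264 and 314 at day 0 (log2 fold change 1.23 ± 0.09 (SE), adjusted p = 9.1e-13). H13, the signal peptide peptidase gene, had 918, 974 and 858 at day 4 and 331, 336 and 328 at day 0 (log2 fold change 1.46 ± 0.07 (SE), adjusted p = 2.0e-17). Mcts2 is a retrogene that lies inside H13 on the same strand, and it fell where its host rose. It had 243, 249 and 232 at day 4 and 541, 525 and 433 at day 0 (log2 fold change -1.04 ± 0.11 (SE), adjusted p = 1.0e-09).

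Peg13, a noncoding RNA inside an intron of Trappc9, had 179.9, 155 and 140.2 at day 4 and 56.7, 62.3 and 54.4 at day 0 (log2 fold change 1.44 ± 0.19 (SE), adjusted p = 6.1e-08), whereas Trappc9, which encodes a subunit of the TRAPP trafficking complex, fell slightly (log2 fold change -0.36 ± 0.06 (SE), adjusted p = 1.0e-05). This host and guest pair moved apart as H13 and Mcts2 did, and both pairs lie on 1 strand, so reads that could belong to either are uncertain. The remaining changes in WT were below 1 on the log2 scale or of low genes. Zdbf2, Grb10, Ddc and Zrsr1 rose by 0.73, 0.89, 0.90 and 0.24 on the log2 scale, and the call of Zrsr1 was lost with quantile scaling. Commd1, a copper metabolism gene that hosts the retrogene Zrsr1, fell by 0.59. Nap1l5, a retrogene inside Herc3 that encodes a nucleosome assembly protein-like factor, averaged 15.8 at day 4 and 5.89 at day 0.

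In Mll2-KO cells, which were given 4-OHT, members differed from WT in both directions on each day, with more falls than rises. At day 0, 9 of 36 tested genes were higher and 17 lower in Mll2-KO than in WT cells, against 47.2% called among all genes, 22.8% higher and 24.3% lower. At day 4, 11 of 42 were higher and 17 lower, against 45.7% of all genes, 25.4% higher and 20.3% lower. With scaling to column totals the day 4 split was 8 higher and 19 lower, so 29.6% of the called members were higher. Of all called genes 34.5% were higher under that scaling, against 55.6% in the main fit, so the contrast with all genes depended on the scaling. The median log2 fold change of the tested members was -0.19 at day 0 and -0.16 at day 4, where all genes had medians of -0.0049 and 0.04. By parental copy, 3 paternally read genes rose and 12 of 21 fell at day 4, against 6 that rose and 5 of 18 that fell among the maternally read ones. At day 0 the counts were 3 higher and 10 lower of 19 paternally read genes, and 4 higher and 6 lower of 14 maternally read genes. Loss of Mll2 with 4-OHT could also be compared in cells without MLL1, as double-KO against Mll1-KO, which shares no library with Mll2-KO against WT.

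At day 0, 7 of 36 genes were higher and 14 lower in double-KO than in Mll1-KO cells (41% of all genes called, 18.9% higher and 22% lower). At day 4, 12 of 42 were higher and 17 lower (54.8% of all genes called, 31.1% higher and 23.7% lower). After scaling to column totals the day 4 split was 7 higher and 20 lower. All genes shifted too, with 36.2% of all called genes higher under that scaling and 56.7% in the main fit. Of the 17 genes lower in Mll2-KO and the 17 lower in double-KO against its own Mll1-KO control at day 4, 16 were shared, 94.1% of each list, where over all genes the shared falls were 77.6% of the first list and 66.4% of the second. The 16 were Cdkn1c, Grb10, Inpp5f, Mest, Nap1l5, Ndn, Nnat, Peg12, Peg13, Plagl1, Ppp1r9a, Sgce, Slc22a3, Usp29, Zdbf2 and Zim1. With quantile scaling Nap1l5, Peg12 and Slc22a3 lost their call in Mll2-KO against WT. Slc22a3 also lost its call in double-KO against Mll1-KO under that scaling. The shared percentages were taken in the main fit only. The shared rises of day 4 were 7, which is 63.6% of the 11 in Mll2-KO and 58.3% of the 12 in double-KO, against 70.5% and 57.7% over all genes. At day 0, 11 falls were shared, 64.7% of the 17 in Mll2-KO and 78.6% of the 14 in double-KO, against 60.5% and 66.8% over all genes. The 7 rises shared at day 0 were 77.8% of the 9 in Mll2-KO and 100% of the 7 in double-KO, against 56.3% and 67.9% over all genes. The 2 comparisons of a day share the variance estimate of 1 fit, and both carry 4-OHT on the Mll2-null side.

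**Figure D2:**
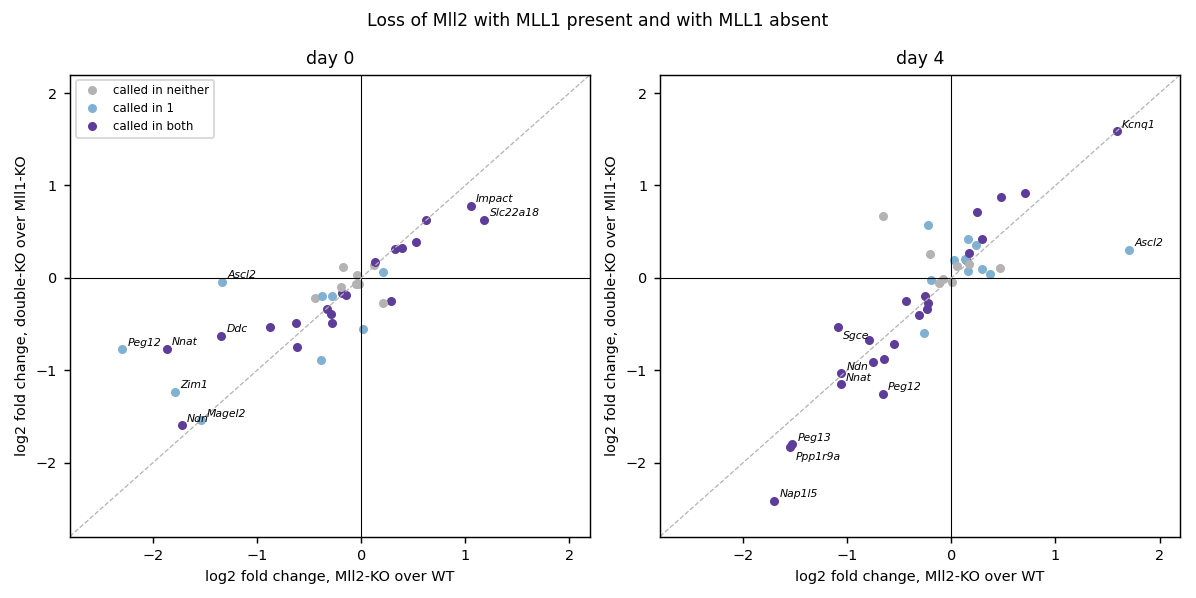
Log2 fold change of each tested imprinted gene after loss of Mll2 with MLL1 present (x axis, Mll2-KO over WT) and with MLL1 absent (y axis, double-KO over Mll1-KO), at day 0 on the left and day 4 on the right; purple points were called in both comparisons, light blue in 1 and grey in neither, and the dashed line marks equal change. At day 4 Ppp1r9a, Peg13, Ndn and Nnat lie low on both axes, and at day 0 Ndn does.

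Ndn and Peg12 of the Snrpn domain were lower in the Mll2-null groups. Ndn had 43.9, 49.98 and 32.8 in Mll2-KO, 48.3, 38.7 and 38.7 in double-KO and 119, 136 and 129.9 in Mll1-KO cells at day 0, against 119, 148 and 155 in WT. The 6 libraries without MLL2 lay well below the 6 libraries with it. The fall was 1.73 on the log2 scale in Mll2-KO against WT (adjusted p = 2.4e-07), 1.60 in double-KO against Mll1-KO (adjusted p = 1.3e-06) and 1.72 in double-KO against WT (adjusted p = 1.5e-07).

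At day 4 Ndn had 393, 382 and 383 in Mll2-KO, 571, 586 and 594 in double-KO and 1162, 1195 and 1233 in Mll1-KO cells, against 806, 822 and 786 in WT. All groups stood apart, with Mll1-KO highest and Mll2-KO lowest. The changes were -1.06 in Mll2-KO against WT, -1.03 in double-KO against Mll1-KO, -0.46 in double-KO against WT and 0.57 in Mll1-KO against WT, all called. Peg12 in the same cluster averaged 43.8 ± 18.8 in Mll2-KO, 38.5 ± 6.46 in double-KO, 92.7 ± 12.7 in Mll1-KO and 66.2 ± 3.18 in WT cells at day 4. In double-KO its libraries had 45.9, 35.3 and 34.2, against 90.0, 81.7 and 107 in Mll1-KO (log2 fold change -1.25 ± 0.22 (SE), adjusted p = 3.3e-05), and 1 Mll2-KO library reached the WT range. The calls of Peg12 against WT, -0.66 in Mll2-KO and -0.78 in double-KO, were lost with quantile scaling.

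Snrpn itself rose at day 4. It had 608, 547 and 574 in Mll2-KO and 767, 722 and 683 in double-KO cells at day 4, against 373, 397 and 415 in Mll1-KO and 396, 409 and 435 in WT. Its changes were 0.48 in Mll2-KO and 0.81 in double-KO against WT, and 0.87 in double-KO against Mll1-KO. Snrpn and Ndn, both read from the paternal copy of 1 domain, thus moved in opposite directions in Mll2-KO cells at day 4. Magel2 was low and noisy at day 0, with 2.69, 12.1 and 0.763 in Mll2-KO and 15.3, 11.4 and 9.32 in WT, and its call there (log2 fold change -1.54 ± 0.61 (SE), adjusted p = 0.045) was lost with edgeR, DESeq2 and quantile scaling. Mkrn3 was called higher at day 4 in double-KO against WT (0.56), and in Mll2-KO against WT it was not called (log2 fold change 0.24 ± 0.12 (SE), adjusted p = 0.11).

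Nnat was lower in Mll2-KO cells on both days. At day 0 it had 25.1, 17.7 and 27.5 in Mll2-KO, against 81.2, 79.7 and 101 in WT (log2 fold change -1.87 ± 0.19 (SE), adjusted p = 1.0e-07). Double-KO had 101, 107 and 90.3 and Mll1-KO 193, 174 and 145, so that double-KO lay below Mll1-KO (-0.77, adjusted p = 0.0026) and above Mll2-KO (2.06, adjusted p = 2.0e-08). At day 4 Nnat had 960.5, 921 and 1054 in Mll2-KO, 1555, 1561 and 1566 in double-KO and 3295, 3451 and 3669.5 in Mll1-KO cells, against 2197, 1866 and 2088 in WT. The order of the groups was the same as for Ndn, with a change of -1.07 in Mll2-KO against WT (adjusted p = 1.4e-13) and -1.15 in double-KO against Mll1-KO (adjusted p = 1.6e-14). Blcap, its host gene, was not called in Mll2-KO at day 4 (log2 fold change 0.06 ± 0.06 (SE), adjusted p = 0.46) and rose at day 0 (log2 fold change 0.21 ± 0.08 (SE), adjusted p = 0.03).

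**Figure D3:**
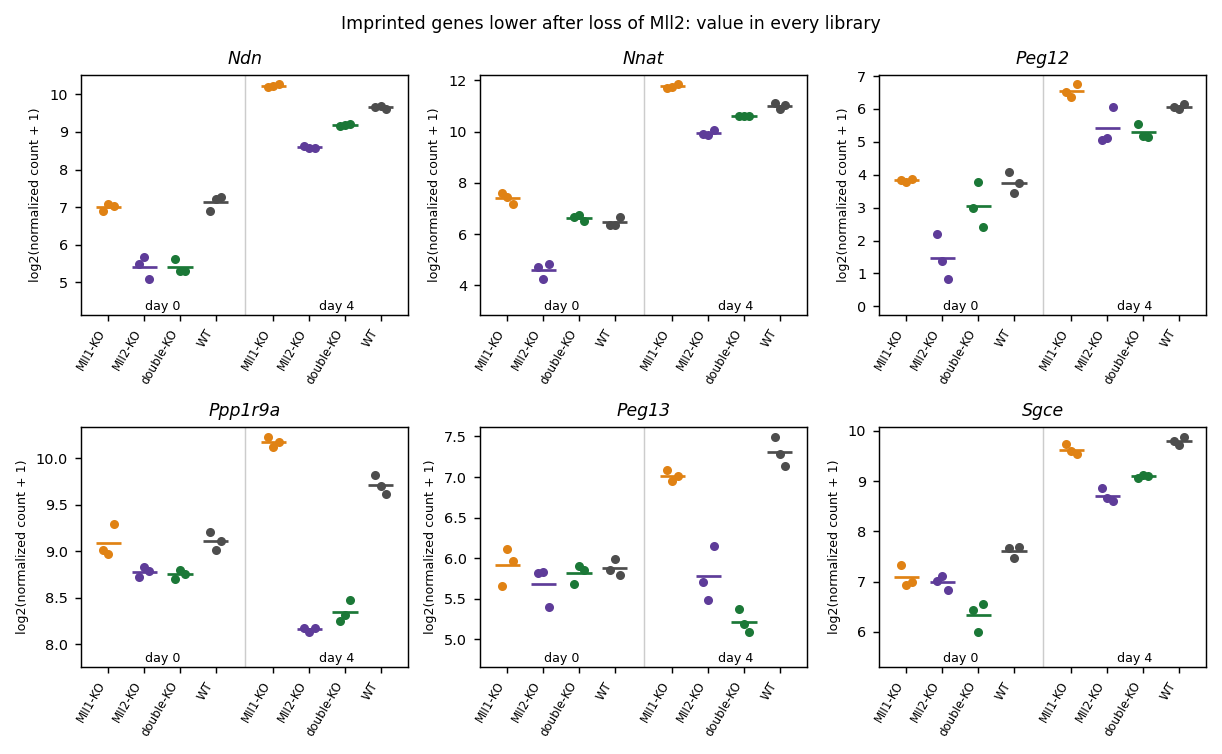
Log2(normalized count + 1) of 6 imprinted genes in each of the 24 libraries, day 0 left and day 4 right in each panel, with points for libraries and a bar for the group mean; axes are log scales and do not start at 0. Ppp1r9a and Peg13 in Mll2-KO and double-KO lie far below Mll1-KO and WT at day 4 and near them at day 0, and Ndn is lower without MLL2 on both days.

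Ppp1r9a and Peg13 fell mainly after differentiation. Ppp1r9a had 289, 280.3 and 288 in Mll2-KO and 303, 319 and 355 in double-KO cells at day 4, against 1204, 1117 and 1158 in Mll1-KO and 902, 830.0 and 786 in WT. Its change was -1.55 in Mll2-KO against WT (adjusted p = 3.9e-15), -1.36 in double-KO against WT (adjusted p = 2.4e-14) and -1.83 in double-KO against Mll1-KO (adjusted p = 7.6e-17). At day 0 its falls were 0.33 in Mll2-KO and 0.35 in double-KO against WT. In WT the gene rose with differentiation, and in Mll2-KO its day 4 libraries lay below its day 0 libraries of 423, 454 and 440.0.

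Peg13 had 51.0, 43.8 and 69.8 in Mll2-KO and 40.3, 35.3 and 33.1 in double-KO at day 4, against 135, 122 and 128 in Mll1-KO and 179.9, 155 and 140.2 in WT. The changes were -1.53 in Mll2-KO against WT (adjusted p = 4.7e-08), -2.10 in double-KO against WT (adjusted p = 1.3e-10) and -1.80 in double-KO against Mll1-KO (adjusted p = 1.8e-09). At day 0 it ranged from 41.2 to 68.3 over all 12 libraries and was called in no comparison. Trappc9, the gene around it, rose in both: 0.37 in Mll2-KO and 0.27 in double-KO against WT at day 4, and 0.63 and 0.40 at day 0.

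Sgce fell in Mll2-KO to 463, 403 and 386 at day 4, against 889, 836 and 945 in WT (log2 fold change -1.09 ± 0.07 (SE), adjusted p = 4.3e-12). Double-KO had 533, 556 and 549.7 and Mll1-KO 852, 774 and 745, and double-KO was lower than Mll1-KO (-0.53, adjusted p = 6.7e-07). At day 0 Sgce was lowest in double-KO, with 85.8, 63.1 and 92.8, against 202, 177 and 204 in WT (log2 fold change -1.28 ± 0.16 (SE), adjusted p = 9.1e-07). Both single mutants lay between, at 159, 122 and 126 in Mll1-KO and 128, 138 and 113 in Mll2-KO. Peg10, which shares a start region with Sgce, fell in Mll2-KO by 0.87 at day 0 and 0.20 at day 4, but in double-KO it rose at day 4 (0.35). Asb4 was not called in any mutant against WT.

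Other members that fell in Mll2-KO at day 4 included Plagl1, Zim1, Usp29, Mest and Grb10. Plagl1 averaged 2492 ± 176 in Mll2-KO, 3013 ± 149 in double-KO and 5683 ± 345 in Mll1-KO, against 4196 ± 359 in WT. Its changes were -0.75 in Mll2-KO against WT and -0.91 in double-KO against Mll1-KO. Zim1 and Usp29 of the Peg3 domain fell in Mll2-KO by 0.79 and 0.55, while Peg3 itself was not called (log2 fold change -0.08 ± 0.04 (SE), adjusted p = 0.08). Mest fell by 0.31 and Zdbf2, a zinc finger gene, by 0.44. Grb10, an adaptor that inhibits the insulin receptor, fell by 0.24, Cdkn1c by 0.26 and Inpp5f by 0.22. Slc22a3 averaged 22.8 ± 5.82 in Mll2-KO and 36.3 ± 8.54 in WT (log2 fold change -0.65 ± 0.26 (SE), adjusted p = 0.044), a call lost with DESeq2 and quantile scaling.

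Nap1l5 rested on few reads. At day 4 it had 3.92, 3.06 and 5.46 in Mll2-KO, 2.24, 1.53 and 0 in double-KO and 8.44, 15.4 and 7.01 in Mll1-KO, against 20.3, 14.0 and 13.0 in WT. Double-KO held 3 reads in all and WT 45, a ratio of 12.8 lower in double-KO with a 95% counting interval of 4.12 to 64.6. It was too low for a test at day 0.

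A few members were higher in the Mll2-null groups, which were given 4-OHT. Slc22a18 had 149, 142 and 154 in Mll2-KO at day 0, against 59.0, 68.4 and 67.6 in WT (log2 fold change 1.18 ± 0.15 (SE), adjusted p = 3.0e-06). Double-KO had 95.7, 89.2 and 85.1 and Mll1-KO 54.5, 53.7 and 65.8, which did not overlap either. Impact had 3973, 3825 and 5540.4 in Mll2-KO and 5256, 5463 and 4946 in double-KO at day 0, against 2993, 2947 and 3191 in Mll1-KO and 2074, 1997 and 2286 in WT. It rose by 1.05 in Mll2-KO (adjusted p = 1.7e-08) and by 1.302 in double-KO (adjusted p = 3.7e-10). At day 4 the rise of Impact against WT was 0.29 in Mll2-KO and 0.30 in double-KO.

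Kcnq1 averaged 29.8 ± 4.39 in Mll2-KO, 37.9 ± 7.04 in double-KO and 12.5 ± 4.93 in Mll1-KO at day 4, against 9.19 ± 0.969 in WT. Kcnq1ot1 lies inside it on the other strand. The rises of Kcnq1 were 1.59 in Mll2-KO and 1.92 in double-KO against WT (adjusted p = 1.9e-04 and 1.4e-05). Ddc, the decarboxylase of dopamine and serotonin synthesis, changed sign between the days. At day 4 it had 615, 516 and 619.8 in Mll2-KO, against 351, 351 and 369 in WT (log2 fold change 0.70 ± 0.08 (SE), adjusted p = 1.4e-07), and 760.0, 737 and 627 in double-KO (0.98 against WT). At day 0 it fell to 94.0, 89.5 and 48.8 in Mll2-KO, against 181, 182 and 209.7 in WT (log2 fold change -1.343 ± 0.19 (SE), adjusted p = 7.3e-06). Double-KO had 184, 137 and 142 at day 0, above Mll2-KO (log2 fold change 1.03 ± 0.19 (SE), adjusted p = 1.3e-04).

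Ascl2 was lower in every mutant at day 0. It had 72.0, 50.8 and 63.2 in Mll1-KO, 49.2, 62.9 and 58.0 in Mll2-KO and 66.1, 52.2 and 61.0 in double-KO, against 135, 128 and 172 in WT. No mutant library reached the WT range. The falls were 1.22, 1.336 and 1.26 on the log2 scale in Mll1-KO, Mll2-KO and double-KO cells (adjusted p = 2.4e-05, 6.6e-06 and 9.2e-06). At day 4, where the gene was low, it averaged 38.1 ± 3.74 in Mll2-KO and 11.2 ± 3.32 in WT (log2 fold change 1.71 ± 0.34 (SE), adjusted p = 1.8e-04), and Mll1-KO and double-KO were not called.

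Cell type markers also differed between Mll2-KO and WT cells at day 4. The 9 pluripotency markers summed to 6563 to 7663 in Mll2-KO and 3657 to 5007 in WT, with 6 of 9 called higher. Of 13 endoderm markers 8 were higher and 2 lower in Mll2-KO, of 9 tested trophectoderm markers 1 was higher and 5 lower, and of 5 tested mesoderm markers 1 was higher and 4 lower. In double-KO the pluripotency sum was 4290 to 4351 and in Mll1-KO 1893 to 2243. The part of these cell mixtures in the day 4 results was not tested.

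More members were higher than lower in Mll1-KO cells. At day 0, 16 of 36 genes were higher and 7 lower in Mll1-KO than in WT (40% of all genes called, 21.3% higher and 18.7% lower), with a median of 0.20 against 0.0049 over all genes. At day 4, 10 of 42 were higher and 1, Impact, lower (35.8% of all genes called, 16.5% higher and 19.2% lower), so the 11 of 42 were a smaller share than over all genes. The 10 were Blcap, Cdkn1c, Gnas, Ndn, Nnat, Peg10, Plagl1, Ppp1r9a, Slc22a18 and Trappc9. The fall of Impact, 0.12 on the log2 scale, was lost with scaling to column totals and with quantile scaling.

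The same loss without MLL2, double-KO against Mll2-KO, gave 15 higher and 6 lower of 36 at day 0 (47.7% of all genes called, 23.4% higher and 24.3% lower). The split became 11 and 8 with scaling to column totals. Of all called genes 38.1% were higher under that scaling, against 49% in the main fit. At day 4 double-KO against Mll2-KO gave 18 higher and 4 lower of 42 (40.3% of all genes called, 19.4% higher and 20.9% lower). This count of 22 was 14 without replicate 3 of Mll2-KO at day 4, and 13 when all 24 libraries shared a fit. Of the 10 genes higher in Mll1-KO against WT at day 4, 9 were among the 18 higher in double-KO against Mll2-KO, that is all but Trappc9, 90% of the first list and 50% of the second. Over all genes 58.4% of the first list and 49.7% of the second were shared. At day 0, 11 rises were shared, 68.8% of 16 and 73.3% of 15, against 68.4% and 62.4% over all genes.

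Gnas rose without MLL1 on both days. At day 0 it had 6114, 6102 and 5907 in Mll1-KO and 6740.3, 6646 and 7035 in double-KO, against 3499.7, 3493 and 4024 in Mll2-KO and 3253, 3369.9 and 3380.5 in WT. The rise was 0.86 in Mll1-KO (adjusted p = 5.4e-11) and 1.03 in double-KO (adjusted p = 1.7e-12) against WT. At day 4 it averaged 20325 ± 649 in Mll1-KO, 13456 ± 411 in Mll2-KO and 23186 ± 194 in double-KO, against 12242 ± 295 in WT. All 6 libraries without MLL1 were above all 6 with it on each day. Gnas has several imprinted transcripts that the gene total does not separate.

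Cdkn1c was likewise higher without MLL1. It averaged 937 ± 100.1 in Mll1-KO, 409 ± 41.4 in Mll2-KO and 816 ± 44.6 in double-KO at day 0, against 497 ± 57.8 in WT. At day 4 the averages were 5487 ± 258 in Mll1-KO, 2840.4 ± 23.4 in Mll2-KO and 4771 ± 251 in double-KO, against 3393 ± 61.4 in WT. The change in Mll1-KO against WT was 0.91 at day 0 and 0.69 at day 4, and in double-KO against Mll2-KO it was 0.999 and 0.75, all called.

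Slc22a18 fell with differentiation in WT, and at day 4 it was higher without MLL1. It had 60.5, 61.8 and 57.5 in Mll1-KO and 59.3, 58.3 and 77.6 in double-KO, against 28.4, 40.8 and 31.6 in Mll2-KO and 21.3, 28.1 and 22.4 in WT. The change against WT was 1.298 in Mll1-KO (adjusted p = 2.1e-05) and 1.40 in double-KO (adjusted p = 3.6e-06). Nnat rose in Mll1-KO by 0.96 at day 0 and 0.76 at day 4, and Peg10 by 0.49 and 0.37. Plagl1 rose by 0.72 at day 0 and 0.44 at day 4. Falls at day 0 were small, and the largest after Ascl2 were Inpp5f (-0.56), Sgce (-0.52) and Copg2 (-0.34).

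Markers of endoderm moved with loss of Mll1 on both days. At day 0, 10 of 10 tested endoderm markers were lower in Mll1-KO than in WT, and at day 4 13 of 13 were. At day 4, 8 of 9 pluripotency markers were lower too, and their sum was 1893 to 2243 in Mll1-KO and 3657 to 5007 in WT. Of 9 tested trophectoderm markers 8 were lower and 1 higher in Mll1-KO at day 4, with sums of 28644 to 32170 in Mll1-KO and 38416 to 39751 in WT, and 3 of 5 tested mesoderm markers were lower. The part of these cells in the rises of Gnas, Cdkn1c and Nnat was not tested.

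**Figure D4:**
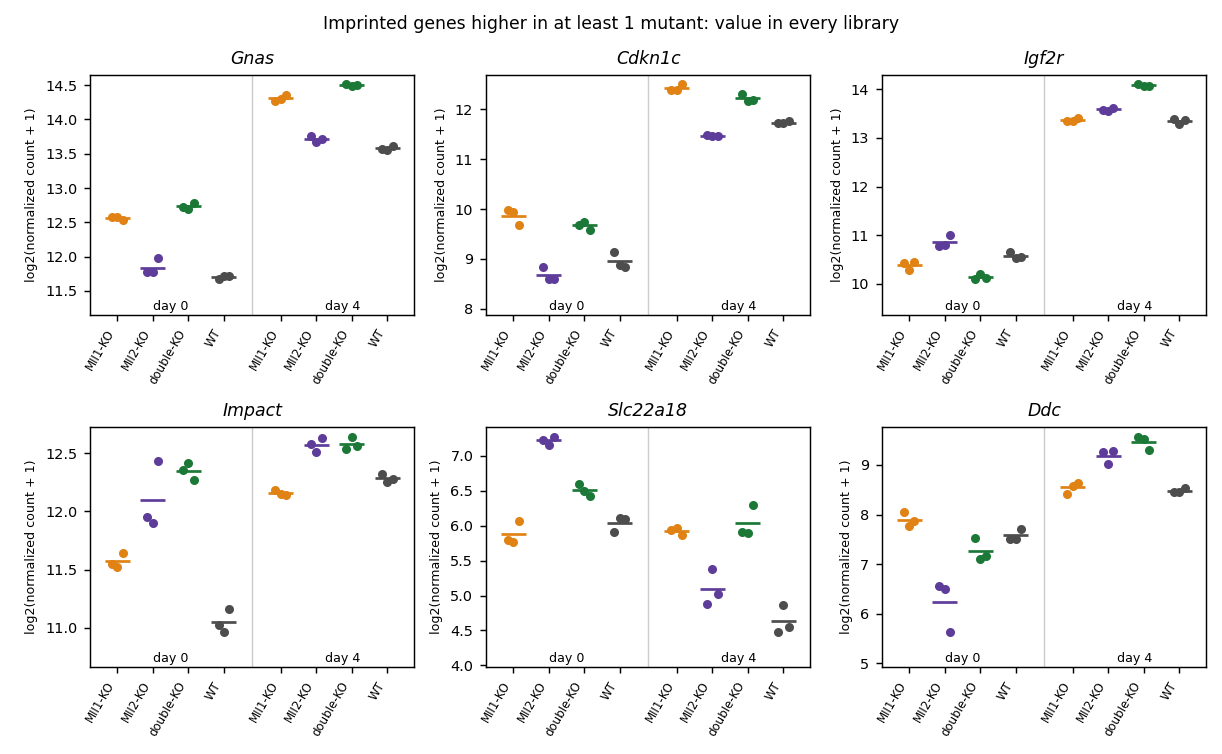
Log2(normalized count + 1) of 6 imprinted genes that were higher in at least 1 mutant, in each of the 24 libraries, with day 0 left and day 4 right in each panel and a bar at each group mean; axes are log scales and do not start at 0. Gnas and Cdkn1c are higher in Mll1-KO and double-KO than in Mll2-KO and WT on both days, and Igf2r is lowest in double-KO at day 0 and highest there at day 4.

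In double-KO against WT, 11 of 36 genes were higher and 8 lower at day 0 (53.7% of all genes called, 26.6% higher and 27.1% lower). At day 4, 18 of 42 were higher and 16 lower (50.9% of all genes called, 27.6% higher and 23.3% lower), so 34 of 42 members were called. Of the paternally read genes 6 of 21 rose and 11 fell at day 4, and of the maternally read genes 9 of 18 rose and 5 fell. This comparison shares its WT libraries with the single mutants.

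Igf2r was lower in double-KO at day 0 and higher at day 4. It averaged 1343 ± 84.2 in Mll1-KO, 1866 ± 165 in Mll2-KO and 1126 ± 43.3 in double-KO at day 0, against 1530.0 ± 70.3 in WT. At day 4 it averaged 10575 ± 234 in Mll1-KO, 12298 ± 295 in Mll2-KO and 17294 ± 245 in double-KO, against 10402 ± 394 in WT. In double-KO against WT it changed by 0.73 at day 4 and by -0.44 at day 0, with adjusted p of 3.7e-14 and 9.1e-06. Airn, its antisense RNA, was not called in double-KO against WT at day 4 (log2 fold change 0.16 ± 0.10 (SE), adjusted p = 0.17), where its libraries had 265, 236 and 243, against 236, 212 and 218 in WT.

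Dcn averaged 208 ± 18.6 in Mll1-KO, 164 ± 18.6 in Mll2-KO and 309 ± 28.4 in double-KO at day 4, against 192 ± 21.9 in WT, and its rise in double-KO was 0.68 (adjusted p = 1.1e-05). Fibroblast markers, 6 of 8 higher and 2 lower, summed to 65232 to 72314 in double-KO and 37923 to 42070 in WT, and their part in this rise was not tested. Phlda2 fell in double-KO at day 4 by 0.62, a call lost with quantile scaling, and Kcnq1ot1 rose by 0.54. Usp29, Zim1 and Plagl1 fell in double-KO by 0.75, 0.62 and 0.48, and Slc22a3 fell by 0.72, a call lost with quantile scaling. Ube3a, Zrsr1, Tssc4 and H13 rose by 0.18, 0.18, 0.27 and 0.32, and the calls of Ube3a and Zrsr1 were lost with scaling to column totals and with DESeq2. Mcts2, Copg2 and Commd1 were not called in double-KO against WT on either day.

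**Figure D5:**
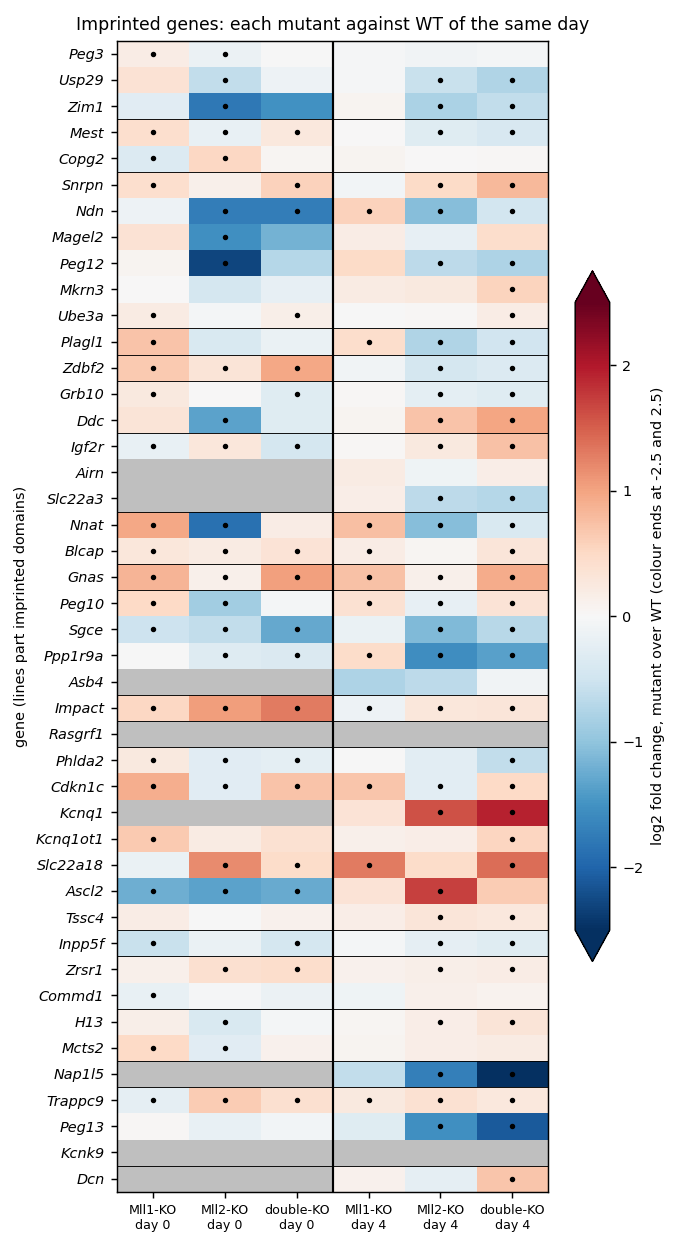
Log2 fold change of the 44 imprinted genes in Mll1-KO, Mll2-KO and double-KO over WT of the same day (columns), with lines between domains, red for higher and blue for lower, dots on called values and grey cells for genes not tested. At day 4 Ppp1r9a and Peg13 are blue in Mll2-KO and double-KO, and Gnas and Cdkn1c are red in Mll1-KO and double-KO on both days.

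Whether an effect differed between the days was tested as an interaction over all 24 libraries. For Mll1-KO 8 members had a higher and 7 a lower effect at day 4 than at day 0 (34% of all genes called, 15% higher and 19% lower). With scaling to column totals the split was 9 and 4, where 64.7% of all called genes were higher, against 44% in the main fit. For Mll2-KO 11 were higher and 10 lower (36.3% of all genes called, 19.3% higher and 17% lower). With column totals the split was 8 and 12, where 37.5% of all called genes were higher, against 53.2% in the main fit. For double-KO 11 were higher and 8 lower (39.4% of all genes called, 20.3% higher and 19.2% lower). All 3 share the WT libraries.

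Ppp1r9a and Peg13 had more negative effects at day 4 in both Mll2-null groups. The difference of effects was -1.22 and -1.338 in Mll2-KO, and -1.01 and -2.03 in double-KO. Ascl2 and Ddc had more positive effects at day 4, with 3.04 and 2.05 in Mll2-KO and 1.90 and 1.29 in double-KO. The fall of Ndn in double-KO was smaller at day 4 (1.26), and the effect on Igf2r was more positive (1.18). The rise of Impact in double-KO was smaller at day 4 (-1.003). In Mll1-KO the effects on Slc22a18 and Ascl2 were more positive at day 4 (1.46 and 1.55). The effect on Zdbf2 was more negative at day 4 in double-KO. It had 1649, 1867 and 1778 in double-KO at day 4, against 2562, 2052 and 2102 in WT, and 2529, 2799 and 2531 in double-KO at day 0, against 1366, 1284 and 1368 in WT (-1.304 between the days).

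Genes that set, keep or read imprints were taken from a list of 37 genes. At day 0, 24 of 36 tested were called in Mll1-KO and all 24 were higher, also with edgeR and DESeq2, against 18 higher and 3 lower with quantile scaling (40% of all genes called). The rises were led by Dnmt3b, a de novo DNA methyltransferase gene (0.85), and Dppa3, which protects maternal methylation (0.69). In Mll2-KO 5 were higher and 16 lower (47.2% of all genes called), and in double-KO 20 were higher and 5 lower (53.7%). Dnmt3a, another de novo methyltransferase gene, was lower in both Mll2-null groups on both days. It averaged 5150.4 ± 105 in Mll1-KO, 3288 ± 592 in Mll2-KO and 2595 ± 73.7 in double-KO at day 0, against 5504 ± 436 in WT. Its changes against WT were -0.76 in Mll2-KO and -1.08 in double-KO at day 0, and -0.73 and -0.91 at day 4.

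Zfp57, whose product protects imprints, rose at day 0 by 0.23 in Mll1-KO, a call lost with quantile scaling, by 0.20 in Mll2-KO and by 0.45 in double-KO. At day 4 it rose by 0.32 in Mll2-KO and 0.23 in double-KO and was not called in Mll1-KO (log2 fold change -0.09 ± 0.05 (SE), adjusted p = 0.21). In Mll1-KO at day 4, 2 of 35 tested were higher and 10 lower (5 and 9 with quantile scaling), so that 34.3% were called, near the 35.8% of all genes. The largest falls were in Dnmt3l, the cofactor of de novo methylation (-1.305), and Zfp42 (-1.14). In Mll2-KO at day 4, 13 were higher and 5 lower (45.7% of all genes called). The split became 9 and 10 with scaling to column totals, where 34.5% of all called genes were higher. With quantile scaling it was 10 and 8, where 54.4% were higher. In double-KO 8 were higher and 9 lower (50.9% of all genes called), or 5 and 13 with either of these scalings. Of all genes called in double-KO, 41.4% were higher with column totals and 53.3% with quantile scaling. In WT cells 8 of 36 were higher and 24 lower at day 4 than at day 0 (82.9% of all genes called), with the largest falls in Dnmt3l, Dppa3 and Zfp42 (-4.33, -4.27 and -3.52) and the largest rise in Tet3, a 5-methylcytosine oxidase gene (2.84). Zfp42 is itself known as a marker of undifferentiated cells, and pluripotency markers fell over the same days.

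In the domains left out of the set, H19 and Meg3 fell in cells without MLL1. H19, the maternal noncoding RNA of the Igf2 domain, averaged 547 ± 9.19 in Mll1-KO, 8553 ± 482 in Mll2-KO and 719 ± 43.0 in double-KO at day 4, against 11188 ± 834 in WT (-4.35, -0.39 and -3.96 on the log2 scale). Igf2 changed by 0.54, -0.23 and 0.32, Meg3 by -1.94, 0.69 and -1.33, and Dlk1 by 0.28, -0.35 and 0.04 in the same order of mutants, the last value of Dlk1 not called.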

How the data were processed

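One deposited table of normalized counts for 19953 genes was used. The deposited signal of a gene behaves as its reads divided by 1 size factor per library, and the authors' size factors could be read from the value steps. Undoing the division gave whole reads for 100% of the values (tolerance 1e-06), and these recovered reads entered edgeR and DESeq2. Per the submitters' processing notes DESeq2 1.34.0, RSEM 1.3.1, STAR 2.7.10a, SAMtools 1.13, Trim Galore 3.4 and FastQC were used on build mm10. The annotation and the strand setting of counting are not given in the sources used here, and RSEM estimates may be rounded. Libraries held 10.7 to 22.8 M reads, which limits genes of few reads most. Intervals and floors cover counting error only. An extra letter in the names of the day 0 WT columns is unexplained, and they were used as the sole WT columns of that day.

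The main test was limma 3.58.1 with a trend in R 4.3.3 on log2(normalized count + 1), over genes reaching 10 in 3 libraries. The fit held the 12 libraries of a day, or all 24 across days. The 14 comparisons were each mutant against WT and double-KO against each single mutant on each day, WT cells of day 4 against those of day 0, and 3 interactions of mutant and day. The settings varied were the pseudocount (0.5 or 5), the filter (none, or a minimum of 50), column totals, quantile scaling, a replicate block, all 24 libraries in the fit, DESeq2 1.42.0, edgeR 4.0.16 with TMM, and the omission of 1 library at a time. The method was checked on simulated counts in which few genes were changed and the size factors were known. That check does not cover the choice of scaling or the many genes called here. Library values are given for genes called with 50 or more as the higher group's mean, a log2 fold change of at least 1 in size and no overlap, with fewer conditions for the change between days. Some changes outside this rule are given with library values too. The 44 genes, the lists and the tests were chosen with earlier results of these data known. Gene positions are from GENCODE and promoters from RefSeq (GRCm38.p6), and genes that overlap another on either strand are uncertain.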

Additional observations from a re-analysis of the deposited data

Results flagged for a closer look

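The effects below differed between the days, tested as the day 4 effect minus the day 0 effect of a mutant against WT with limma over 24 libraries, and were at least 1 in size on the log2 scale. All use the same WT libraries. For Mll1-KO the difference was 1.46 for Slc22a18 (adjusted p = 4.83e-05) and 1.55 for Ascl2 (adjusted p = 0.00249). For Mll2-KO it was 1.63 for Peg12 (adjusted p = 0.0104), 2.05 for Ddc (adjusted p = 8.08e-08), -1.22 for Ppp1r9a (adjusted p = 2.4e-09), 3.04 for Ascl2 (adjusted p = 6.62e-07) and -1.34 for Peg13 (adjusted p = 0.000233). The value of Peg12 rests on 32.3, 33.6 and 65.5 normalized counts in Mll2-KO and 66.1, 63.2 and 69.5 in WT at day 4, and on 3.58, 1.61 and 0.763 in Mll2-KO and 16.1, 9.87 and 12.4 in WT at day 0, where it is close to the pseudocount.

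For double-KO the difference was 1.26 for Ndn (adjusted p = 1.2e-06), -1.3 for Zdbf2 (adjusted p = 1.05e-09), 1.29 for Ddc (adjusted p = 4.58e-05) and 1.18 for Igf2r (adjusted p = 1.06e-12). It was -1.01 for Ppp1r9a (adjusted p = 3.86e-08), -1.0 for Impact (adjusted p = 8.11e-08), 1.9 for Ascl2 (adjusted p = 0.000271) and -2.03 for Peg13 (adjusted p = 5.8e-07). For Ascl2 all day 4 values in Mll1-KO, double-KO and WT were at most 26.1 normalized counts.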

How the results depend on the processing

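Of 1925 alternative values for the 68 changes that met the rule for library values, 1924 kept their direction and their call, and none reversed. The exception was the change of the Mll2-KO effect on Peg12 between the days, which was 0.745 with a pseudocount of 5 (adjusted p = 0.0875) against 1.63. That rule picks large changes from these same data. Some changes outside it that are also given with library values, such as Magel2 in Mll2-KO at day 0, lost their call. With a pseudocount of 5 the WT rises of Dcn and Airn were 5.3 and 4.97, and Dcn was 8.59 with a pseudocount of 0.5, 10.6 with edgeR and 10.4 with DESeq2. Of 352 counts of called members 2 lay beyond 1.5 times the main count, both for double-KO against Mll2-KO at day 4, with 13 in place of 22 when all 24 libraries shared a fit and 14 without replicate 3 of Mll2-KO. Leaving out single libraries gave 14 to 22 there and 19 to 27 for Mll2-KO against WT at day 0, the widest in number of genes among the other comparisons within a day, while Mll1-KO against WT at day 4 gave 10 to 13.

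Libraries of the same replicate number correlated weakly across groups: over 84 pairs the median r was 0.00304 and 0 were above 0.1. Still, 13 of 24 libraries correlated best with their own number, more than an even split over the 3 numbers would give. Weak pairing by number is therefore uncertain. With a replicate block 23 members were called in Mll1-KO against WT at day 0, 27 in Mll2-KO and 21 in double-KO, and 11, 26 and 34 at day 4. Of 329 calls of members in all comparisons 56 were lost under column totals, quantile scaling, edgeR or DESeq2, 38 of them under 0.5 in size and 18 up to 1.79, and 2 changed direction, both with quantile scaling (Gnas in double-KO against Mll1-KO at day 4, -0.0544, and Grb10 in the change of the Mll1-KO effect, 0.0521).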
